A study of Homo sapiens with 8 samples.

Results

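The 54 genes examined here encode the machinery that takes a cell through mitosis: cyclins A2 and B with their kinase CDK1, the Aurora and polo kinases, the spindle checkpoint, the kinetochore, the spindle motors and the proteins of cytokinesis. They were chosen by gene symbol, with earlier results of these data known, from the 57820 genes of the deposited tables. The symbols matched 55 rows, because CKS1B carried a second gene identifier (ENSG00000268942.1) with 0 counts in every library, and ENSG00000173207.8 was used for it. All 54 genes had reads in all 8 libraries and passed the filter on low counts, which left 11218 genes for testing.

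The material was A549, an established human lung adenocarcinoma line, in 4 groups of 2 libraries each. In the first experiment, cells carried an MGA overexpression vector or an empty vector. In the second experiment, cells were treated with siMYC, an siRNA that silences MYC, or with siNC, a negative control siRNA. MGA is a transcription factor that dimerises with MAX, which is also the obligate partner of the oncoprotein MYC, and the comparisons ask how mitotic genes respond when MGA is raised and when MYC is lowered. The labels do not say how long the vectors or siRNAs were applied, whether the overexpressing cells were 1 clone, or whether replicates A and B of a group were separate cultures.

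Mitosis is entered when cyclin B accumulates and activates CDK1, and it is left when the anaphase-promoting complex, switched on by CDC20, marks cyclin B and securin for destruction. Most genes of this programme are transcribed together late in the cell cycle. In dividing cells the MuvB complex recruits the activators B-MYB (the product of MYBL2) and FOXM1 to a short promoter element called the CHR, often beside CCAAT boxes that bind the factor NF-Y, and in resting cells MuvB holds the same promoters silent as part of the DREAM complex. MYC-MAX and MGA-MAX dimers bind another element, the E-box.

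Libraries held 820428 to 2129006 expected counts, and the siRNA libraries were deeper than the overexpression libraries. The manipulated genes followed the labels: the MGA gene took 9.54% and 9.68% of all reads with MGA, against 0.0124% and 0.0083% with empty vector, and MYC stood at 48.3 and 41.1 CPM (counts scaled to library size) with siMYC, against 219 and 183 CPM with siNC. In the overexpression experiment MYC stood at 296 and 347 CPM with MGA, against 234 and 241 CPM with empty vector. Of the 6 epithelial markers, KRT7, KRT8 and KRT18 were each at 993 TPM or more in every library. KRT19 was at 155 and 119 TPM with siMYC, against 58.5 and 47.4 TPM with siNC, and at 9.18 to 16.1 TPM in the overexpression libraries. CDH1 was at 6.16 to 49.9 TPM, and EPCAM was at 6.67 to 14.8 TPM in the siRNA libraries and at 0 TPM in all overexpression libraries but empty vector B (1.13 TPM). Of the markers of other cell types, PTPRC and CD3E of leukocytes, CDH5, VWF and KDR of endothelium and DCN of fibroblasts had 0 counts in all 8 libraries. The summed level of the 5 fibroblast markers was 87.0 and 87.7 TPM with siMYC, against 10.9 and 20.3 TPM with siNC, nearly all of it from COL1A1. The summed level of 4 leukocyte markers was 137 to 150 TPM with MGA, against 162 to 176 TPM with empty vector, and 38.3 to 41.8 TPM with siMYC, against 16.4 to 18.3 TPM with siNC, nearly all of it from the lysosomal gene CD68. Their part in the results below was not tested.

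The promoters of the mitotic genes held the CHR and CCAAT letters more often than those of all tested genes. Windows of 300 bases, from 250 before to 50 after each RefSeq gene start (build GRCh38.p14), were at hand for 46 of the 54 genes, in 58 windows where alternative starts are listed. The CHR letters TTTGAA, read on both strands, stood in a window of 34 of these 46 genes (73.9%), against 13.6% of the 8370 tested genes with a window and 18.2% of all 27305 genes. CCAAT stood in 36 of 46 (78.3%), against 43.8% of tested genes, and both motifs stood in the same window for 27 of 46 genes (58.7%), against 5.66% of tested genes. The E-box letters CACGTG were found in 6 of 46 genes (13%), a share close to the 12.9% of tested genes. The rarer CHR form TTCGAA was found in 4 of 46 genes, against 2.43% of tested genes.

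Of 48 TTTGAA matches in the mitotic windows, 21 lay within the 50 bases before the start, and the others were spread from 242 bases before it to 43 after it. Alternative windows of a gene can overlap, as in ECT2 and CDC25C, and a site is then counted in each window that holds it. From 50 to 26 bases before the start there were 19.0 TTTGAA matches per 100 mitotic windows, against 0.836 in other tested genes. CCAAT matches were densest from 75 to 51 bases before the start, at 48.3 per 100 windows, against 9.38 per 100 windows in other tested genes. A match describes letters and was not tested for binding.

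**Figure D1:**
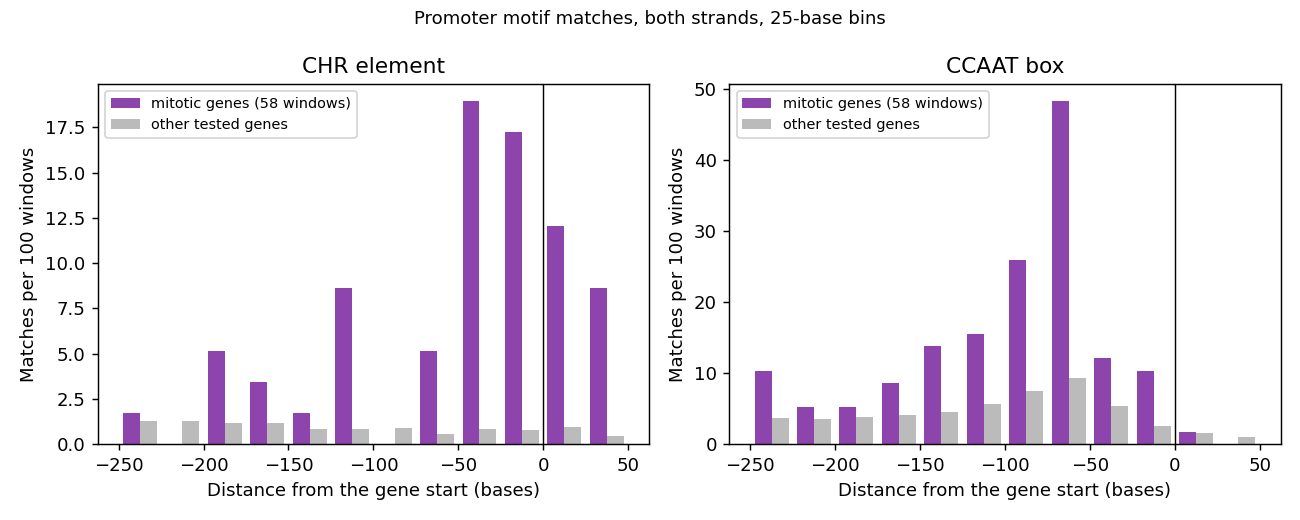
Matches to the CHR letters (left) and to the CCAAT box (right) per 100 promoter windows in 25-base bins, by distance in bases from the gene start, for the mitotic genes (purple) and the other tested genes (grey). CHR matches of mitotic genes peak at 19.0 per 100 windows from 50 to 26 bases before the start, and CCAAT matches peak at 48.3 per 100 windows from 75 to 51 bases before it.

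The windows of 6 genes that the results below turn on are shown on the strand of the gene, with matches to these 4 motifs on either strand in capitals (touching or overlapping matches run together). PLK1, CKS1B and HMMR have a CHR shortly before the start and 1 or more CCAAT boxes upstream of it, and PLK1 also has an E-box. CCNB1 has CCAAT boxes and an E-box but no exact CHR match. For CDC25B, the window shown was picked from the 4 listed because it holds the rarer CHR form, and none of the 4 holds the common form. MZT1 has the common CHR letters on the opposite strand, the rarer form on the gene's own strand and a pair of CCAAT boxes.
PLK1 (chr16:23678639-23678938, plus strand): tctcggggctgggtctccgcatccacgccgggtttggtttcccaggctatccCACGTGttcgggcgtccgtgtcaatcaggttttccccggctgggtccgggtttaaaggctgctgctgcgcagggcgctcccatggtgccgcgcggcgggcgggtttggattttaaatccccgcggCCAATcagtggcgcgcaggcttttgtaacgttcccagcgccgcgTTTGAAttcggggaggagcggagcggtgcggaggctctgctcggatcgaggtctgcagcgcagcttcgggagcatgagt
CKS1B (chr1:154974431-154974730, plus strand): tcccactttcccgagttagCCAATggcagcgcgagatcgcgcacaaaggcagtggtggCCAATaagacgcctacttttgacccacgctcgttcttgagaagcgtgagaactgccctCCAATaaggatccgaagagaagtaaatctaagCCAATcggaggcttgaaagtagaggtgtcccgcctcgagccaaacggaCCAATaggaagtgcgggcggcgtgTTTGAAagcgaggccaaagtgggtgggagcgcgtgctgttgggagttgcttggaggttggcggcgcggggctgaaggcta
HMMR (chr5:163460382-163460681, plus strand): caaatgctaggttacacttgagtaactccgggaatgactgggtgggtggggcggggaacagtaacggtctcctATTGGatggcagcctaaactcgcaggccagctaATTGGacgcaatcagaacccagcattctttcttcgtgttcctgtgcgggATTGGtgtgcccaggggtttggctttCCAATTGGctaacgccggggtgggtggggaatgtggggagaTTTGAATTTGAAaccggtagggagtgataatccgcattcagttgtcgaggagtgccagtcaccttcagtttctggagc
CCNB1 (chr5:69166900-69167199, plus strand): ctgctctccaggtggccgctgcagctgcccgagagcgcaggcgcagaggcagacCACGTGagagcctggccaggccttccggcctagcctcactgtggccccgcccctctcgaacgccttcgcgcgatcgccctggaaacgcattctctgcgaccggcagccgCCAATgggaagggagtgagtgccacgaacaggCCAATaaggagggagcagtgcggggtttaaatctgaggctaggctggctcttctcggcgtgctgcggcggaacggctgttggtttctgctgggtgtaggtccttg
CDC25B (chr20:3796060-3796359, plus strand): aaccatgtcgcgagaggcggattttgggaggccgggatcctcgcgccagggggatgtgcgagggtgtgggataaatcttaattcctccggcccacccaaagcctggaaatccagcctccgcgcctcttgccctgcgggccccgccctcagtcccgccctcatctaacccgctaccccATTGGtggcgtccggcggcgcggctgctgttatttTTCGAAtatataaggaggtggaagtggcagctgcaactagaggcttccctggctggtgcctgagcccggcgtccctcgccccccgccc
MZT1 (chr13:72727580-72727879, minus strand): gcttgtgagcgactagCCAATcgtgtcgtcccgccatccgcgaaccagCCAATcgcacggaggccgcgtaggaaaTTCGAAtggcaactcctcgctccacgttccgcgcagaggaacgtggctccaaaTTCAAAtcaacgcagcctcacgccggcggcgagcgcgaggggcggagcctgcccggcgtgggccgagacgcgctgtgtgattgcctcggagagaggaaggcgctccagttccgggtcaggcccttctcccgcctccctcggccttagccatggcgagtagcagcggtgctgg

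Mitotic genes were lower with MGA. In edgeR's quasi-likelihood test, 25 of the 54 genes fell at an adjusted p under 0.05, 0 rose and 29 did not pass, where 4.0% of all tested genes were called lower and 4.96% higher (8.96% in either direction). The median log2 fold change over the 54 genes was -0.71, beside 0.01 over all tested genes, and 52 of 54 values were negative, CDC25C and ECT2 being the exceptions. In 46 genes both MGA libraries lay below both empty vector libraries, a pattern shown by 25% of tested genes, and in CDC25C they lay above, as in 27.6% of tested genes. The CDC25C values rest on 7 and 3 counts with MGA and on 3 and 1 counts with empty vector, too few to read. Together the 54 genes took 0.256% and 0.254% of counts with MGA, against 0.448% and 0.451% with empty vector. The reads of the MGA gene are part of these totals and lower every other share with MGA. In TMM-scaled counts the 54 genes summed to 2751 and 2722 CPM with MGA, against 4384 and 4433 CPM with empty vector. From bulk RNA, fewer cells in mitosis and less RNA of these genes per cell cannot be told apart. The mitochondrial share of the same totals also differed, at 2.73% and 2.74% with MGA against 3.97% and 3.86% with empty vector, and its part in the result was not tested.

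The number of calls rested on all 4 overexpression libraries: leaving out MGA A or MGA B gave 9 and 11 calls, and leaving out empty vector A or B gave 10 and 15. DESeq2 called 13 of the 54 genes lower, and limma-trend on TPM called 3 (CDC25B, CKS1B and TOP2A). With DESeq2 the calls of CCNA2, CDK1, FOXM1, UBE2C, PTTG1, BIRC5, HJURP, KIF11, TACC3, DLGAP5, ASPM and PRC1 were lost. Without TMM scaling (library sizes alone) 33 were called, in a setting that moved the median of all genes to -0.12. In none of the 17 alternatives was a gene of the 54 called higher.

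With siMYC, 44 of the 54 genes fell, 0 rose and 10 did not pass, where 20% of all tested genes were called lower and 19.0% higher (39.0% in either direction). The median log2 fold change was -0.61, beside 0.01 over all tested genes, and CDC25B was the single gene with a positive value. In 51 genes the siMYC libraries lay below both siNC libraries, as in 33.6% of tested genes, and in CDC25B they lay above, as in 34.0%. The share of counts was 0.556% and 0.527% with siMYC, against 0.782% and 0.771% with siNC. DESeq2 called 25 of the 54 genes lower and limma-trend on TPM called 7, while leaving out any library in turn gave 39 to 44. With DESeq2 the siMYC calls of CCNB2, CKS2, FOXM1, UBE2C, PTTG1, PLK4, BIRC5, CDCA8, INCENP, CENPA and NUF2 were lost. Those of SKA1, KIF11, HMMR, DLGAP5, ASPM, ECT2, KIF4A and KIF20A were lost as well. The genes called on TPM were AURKB, CCNB1, CDC20, CDCA3, CDK1, MZT1 and PLK1. As a description over genes that share libraries, the responses to MGA and to siMYC had a Pearson's r of -0.02 and a Spearman's rho of 0.16 across the 54 genes (n = 54), beside 0.11 and 0.16 across all 11218 tested genes.

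The lower number of calls with MGA went along with lower depth. The median gene of the 54 averaged 42.5 expected counts over the overexpression libraries and 141 over the siRNA libraries, and their log2 fold changes had a median standard error of 0.22 with MGA and 0.14 with siMYC. With MGA, no gene with a mean under 29.8 counts was called, which holds for 15 of the 54 genes. Of the 28 genes at or under the median count 7 were called, and of the 26 above it 18. CDC25C and NDC80 passed the filter only through the siRNA libraries. The part of depth in the number of calls was not tested.

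**Figure D2:**
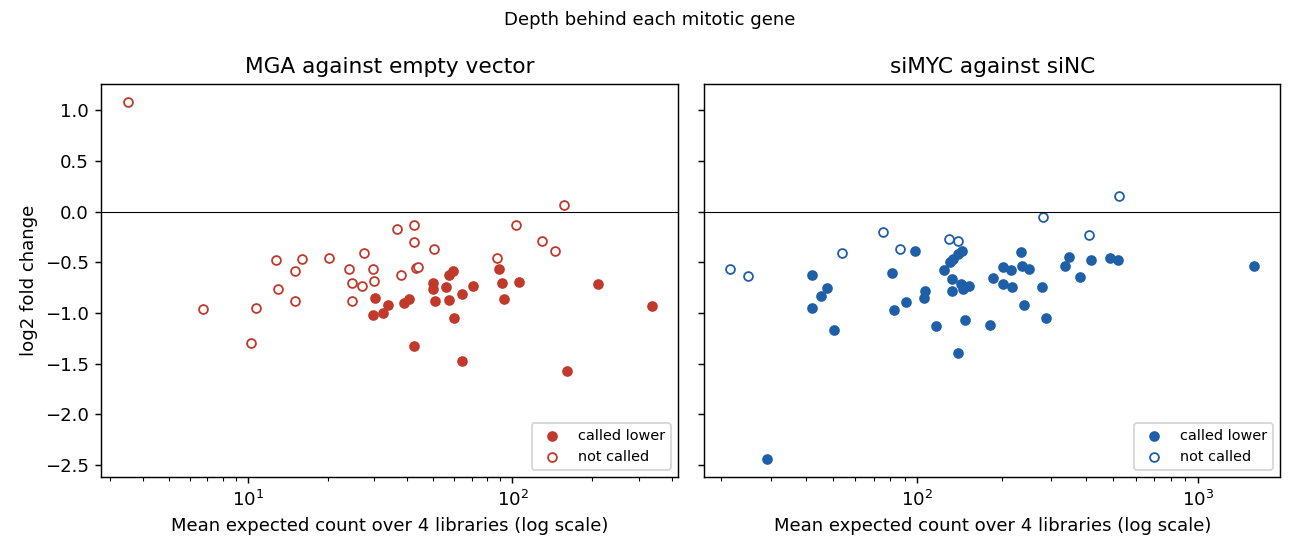
Log2 fold change of the 54 mitotic genes (vertical axis) against their mean expected count over the 4 libraries of a comparison (horizontal, log scale), with called genes filled. With MGA the calls begin at a mean of 29.8 counts, and 15 genes lie below it; with siMYC 2 genes lie below the lowest called mean of 29.0 counts.

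Of the 9 genes of cyclins, CDK1 and mitotic entry, 5 fell with MGA and 7 with siMYC. CKS1B, a small subunit of cyclin-dependent kinases, was the most abundant member per length, with mean levels of 107 TPM with MGA, 282 TPM with empty vector, 273 TPM with siMYC and 409 TPM with siNC. Its scaled counts were 31.9 and 46.7 CPM with MGA, against 112 and 102 CPM with empty vector (log2 fold change -1.47, SE 0.20, adjusted p = 1e-05). They were 91.9 and 103 CPM with siMYC, against 169 and 156 CPM with siNC (log2 fold change -0.75, SE 0.13). The groups did not overlap in either comparison, and the fall with MGA held in all 17 alternatives. The pseudogene copies of CKS1B listed in the tables had 0 counts.

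CCNB1, cyclin B1, had 71.2 and 77.1 CPM with MGA, against 148 and 120 CPM with empty vector, and fell (-0.86 on the log2 scale, SE 0.16, adjusted p = 0.00074). With siMYC it had 114 and 109 CPM, against 224 and 239 CPM with siNC, and fell again (-1.05 on the log2 scale, SE 0.11, adjusted p = 3.2e-08). Cyclin B1 fell in both experiments without overlap of the groups, and the difference between the responses did not pass (0.19, SE 0.20, adjusted p = 0.57). CDK1 and CCNA2, the catalytic partner and cyclin A2, behaved likewise, with log2 fold changes of -0.90 and -0.92 with MGA and of -1.07 and -0.78 with siMYC, all called. CCNB2 (cyclin B2), CKS2 and CDCA3, a trigger of mitotic entry, fell with siMYC by 0.66, 0.49 and 1.17 on the log2 scale, and their values of -0.45, -0.13 and -0.95 with MGA did not pass.

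CDC25B, a phosphatase that removes the inhibitory phosphates from CDK1 to start mitosis, stood apart from the rest. It had 104 and 77.1 CPM with MGA, against 280 and 266 CPM with empty vector. The log2 fold change of -1.57 (SE 0.14, adjusted p = 1.5e-08) was the largest fall among the 54 genes with MGA, a fall by 66.4%. It had 324 and 306 CPM with siMYC, against 279 and 287 CPM with siNC, and this difference of 0.16 (SE 0.10, adjusted p = 0.22) did not pass. The 6 libraries without MGA overexpression thus lay between 266 and 324 CPM, and the MGA libraries alone were low. Its relative CDC25C was too weakly measured in the overexpression libraries for a statement, at 6.39 and 3.50 CPM with MGA and 3.47 and 1.2 CPM with empty vector.

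**Figure D3:**
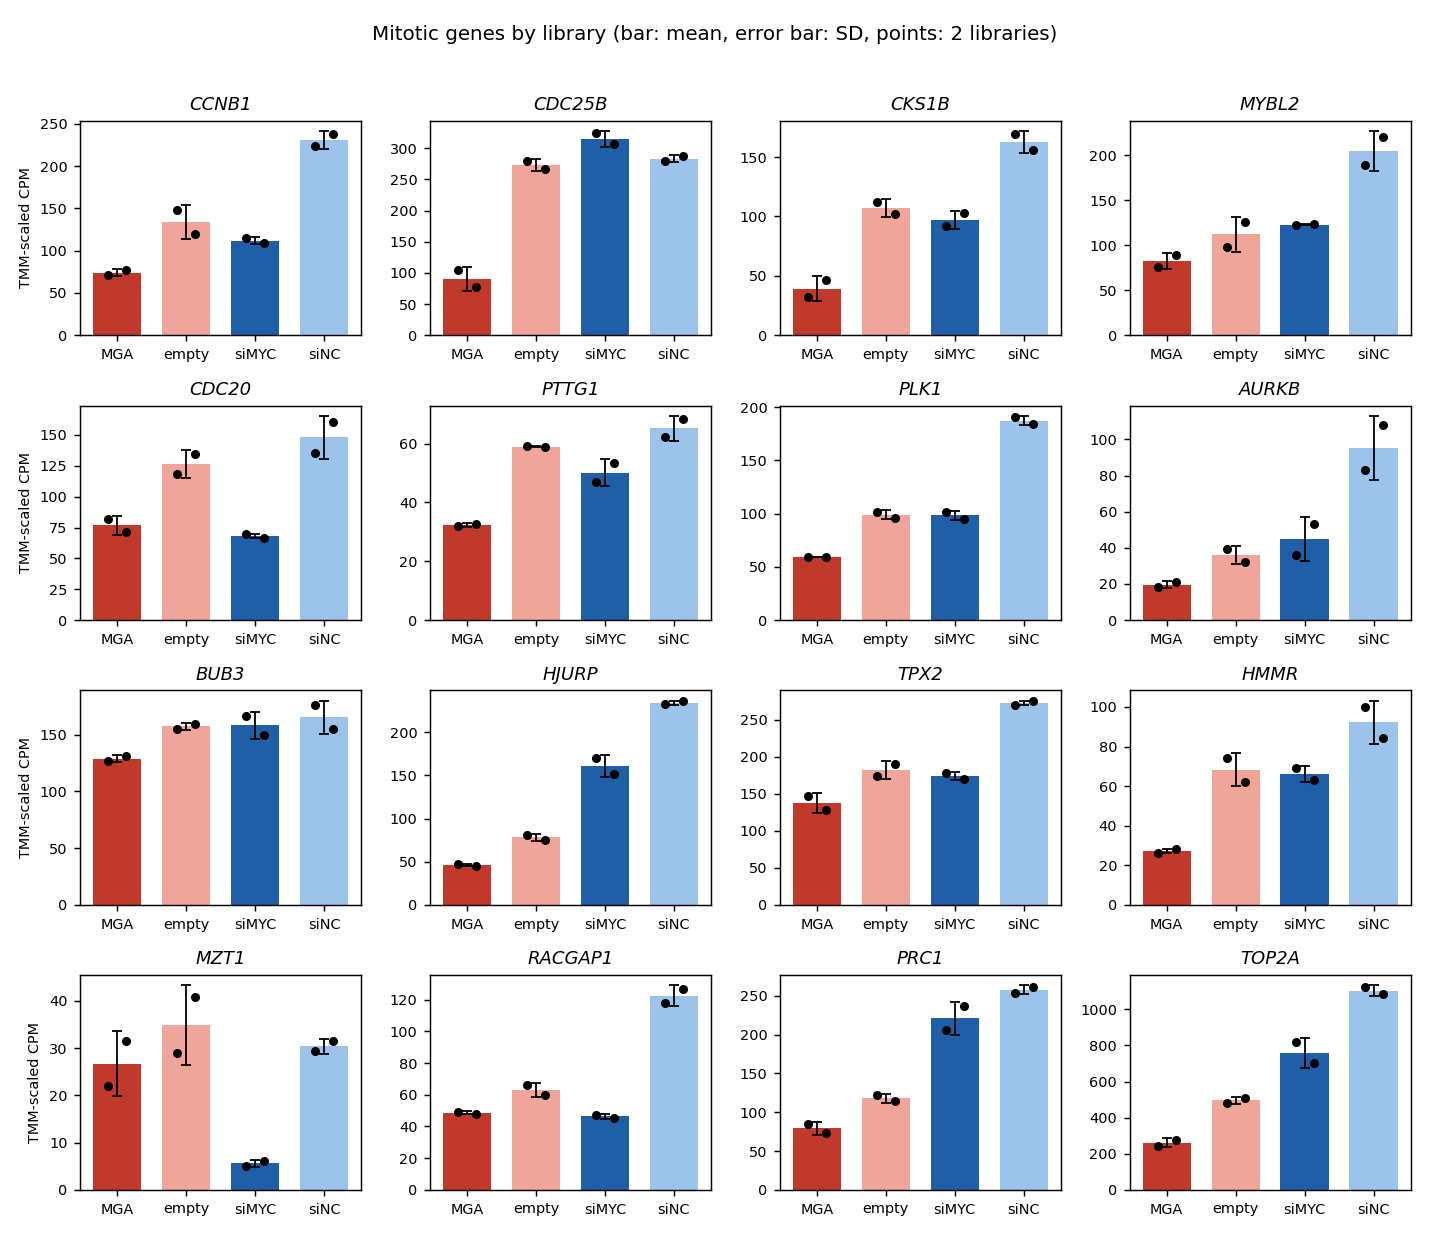
TMM-scaled counts (CPM) of 16 mitotic genes in each group (bars: means, error bars: SD, points: the 2 libraries). CDC25B is low in the MGA libraries alone (104 and 77.1 CPM), MZT1 in the siMYC libraries alone (5.05 and 6.14 CPM), and cyclin B1 is lower in both treated groups than in their controls.

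Both transcription factors of the programme, MYBL2 and FOXM1, fell with siMYC, and FOXM1 fell with MGA. MYBL2 had 75.7 and 88.8 CPM with MGA, against 98.4 and 126 CPM with empty vector, and this log2 fold change of -0.46 (SE 0.17, adjusted p = 0.099) did not pass. With siMYC it had 122 and 123 CPM, against 189 and 220 CPM with siNC, and fell (log2 fold change -0.74, SE 0.12, adjusted p = 1.4e-05). FOXM1 fell in both, with log2 fold changes of -0.63 (adjusted p = 0.035) with MGA and -0.54 (adjusted p = 0.0007) with siMYC. The FOXM1 call with MGA was lost in 7 of 17 alternatives.

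All 3 genes of anaphase and mitotic exit fell in both comparisons. CDC20, the activator of the anaphase-promoting complex, had 82.1 and 71.3 CPM with MGA, against 118 and 134 CPM with empty vector (log2 fold change -0.71, SE 0.16, adjusted p = 0.006). It had 69.4 and 66.9 CPM with siMYC, against 136 and 160 CPM with siNC (log2 fold change -1.12, SE 0.13, adjusted p = 1.1e-07). Neither pair of groups overlapped. PTTG1, securin, which restrains separase until anaphase, had 31.9 and 32.7 CPM with MGA, against 59 and 58.8 CPM with empty vector (log2 fold change -0.87, SE 0.22, adjusted p = 0.013). With DESeq2 and on TPM, PTTG1 was not called with MGA. With siMYC it had 46.9 and 53.4 CPM, against 62.2 and 68.2 CPM with siNC, and that call (-0.39, adjusted p = 0.046) was lost in 12 of 17 alternatives. UBE2C, the ubiquitin-conjugating enzyme of the complex, fell by 1.0 with MGA and by 0.79 with siMYC on the log2 scale.

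Among the 4 kinases of this group, PLK1 and AURKA fell in both comparisons. PLK1, polo-like kinase 1, had 59.3 and 59.6 CPM with MGA, against 102 and 95.9 CPM with empty vector (log2 fold change -0.73, SE 0.17, adjusted p = 0.0062). It had 102 and 95.1 CPM with siMYC, against 191 and 184 CPM with siNC (log2 fold change -0.93, SE 0.11, adjusted p = 2.7e-07). PLK1 thus had about the same level in the empty vector and the siMYC libraries, which belong to separate experiments. AURKA, Aurora A, which matures centrosomes, fell by 0.81 with MGA and by 0.71 with siMYC on the log2 scale. PLK4, the kinase of centriole duplication, fell with siMYC alone (log2 fold change -0.95), and NEK2, which separates centrosomes, passed in neither comparison.

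In the chromosomal passenger complex, which corrects faulty spindle attachments, 1 of 4 genes fell with MGA and 4 of 4 with siMYC. AURKB, its kinase Aurora B, had 18.3 and 21.0 CPM with MGA, against 39.4 and 32.4 CPM with empty vector, and the log2 fold change of -0.88 (SE 0.32, adjusted p = 0.086) did not pass. It had 36.3 and 53.4 CPM with siMYC, against 82.9 and 108 CPM with siNC, and fell (log2 fold change -1.13, SE 0.17, adjusted p = 6.4e-06). The groups overlapped in neither comparison, and the standard error was larger with MGA. BIRC5 (survivin) fell in both, with log2 fold changes of -0.70 with MGA and -0.57 with siMYC, while the borealin gene CDCA8 and the scaffold INCENP fell with siMYC alone. With DESeq2 and on TPM the siMYC calls of BIRC5, CDCA8 and INCENP were lost, as was the MGA call of BIRC5. The siMYC call of AURKB held in both.

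Of the 5 spindle checkpoint genes, BUB1 fell with MGA, and BUB1, BUB1B and MAD2L1 fell with siMYC. BUB1, a checkpoint kinase, had log2 fold changes of -1.04 (SE 0.20) with MGA and -0.77 (SE 0.14) with siMYC. MAD2L1, the MAD2 inhibitor of CDC20, had log2 fold changes of -0.69 with MGA, which did not pass, and -0.97 with siMYC. TTK, the checkpoint kinase MPS1, had log2 fold changes of -0.88 with MGA and -0.40 with siMYC, and neither passed. BUB3, the subunit that docks the BUB kinases, passed in neither comparison, with 127 and 131 CPM with MGA against 155 and 160 CPM with empty vector, and with 167 and 150 CPM with siMYC against 176 and 155 CPM with siNC. The BUB3 groups overlapped with siMYC and did not with MGA. BUB3 was the most abundant of the 5 per length, and its value with siMYC (-0.05, SE 0.11) was the nearest to 0 in that comparison.

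At the centromere and kinetochore, 2 of 7 genes fell with MGA and 5 of 7 with siMYC. HJURP, the chaperone that deposits the centromeric histone CENPA, had 47.4 and 45.6 CPM with MGA, against 81.0 and 75.6 CPM with empty vector (log2 fold change -0.75, SE 0.19, adjusted p = 0.012). HJURP lost this call with DESeq2 and on TPM. It had 170 and 152 CPM with siMYC, against 232 and 236 CPM with siNC (log2 fold change -0.54, SE 0.11, adjusted p = 0.0002). HJURP differed more between the experiments than within them. CENPF, a large kinetochore protein, also fell in both, by 0.69 with MGA and by 0.46 with siMYC on the log2 scale. CENPA itself had a larger estimate with MGA (-1.30, SE 0.44, adjusted p = 0.064), on few counts, and fell by 0.83 with siMYC. NUF2 and SKA1, of the microtubule-binding NDC80 and SKA complexes, fell with siMYC alone, and NDC80 passed in neither. With DESeq2 and on TPM the siMYC calls of CENPA, NUF2 and SKA1 were lost. The SKA1 call (edgeR adjusted p = 0.035) was also lost in the separate fit of the siRNA libraries. For the kinetochore motor gene CENPE, counts and length-corrected levels disagreed: its log2 fold change with MGA was -0.30 on counts and 0.85 on log2(TPM + 1), neither called. The effective length estimated for CENPE was 2965 and 4230 bases with MGA, against 8007 and 8122 bases with empty vector.

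Of the 11 spindle genes, 6 fell with MGA and 9 with siMYC. HMMR, a microtubule-binding protein of the spindle poles, had 26.5 and 28.0 CPM with MGA, against 74.1 and 62.4 CPM with empty vector (log2 fold change -1.33, SE 0.23, adjusted p = 0.0003). It had 68.9 and 63.2 CPM with siMYC, against 100 and 84.6 CPM with siNC (log2 fold change -0.47, SE 0.14, adjusted p = 0.0099). Both MGA libraries lay far below the other 6, whose lowest value was 62.4 CPM. TPX2, which activates Aurora A on the spindle, had 148 and 129 CPM with MGA, against 174 and 191 CPM with empty vector, and did not pass (log2 fold change -0.39, SE 0.13, adjusted p = 0.064). It fell with siMYC, with 178 and 170 CPM against 271 and 275 CPM with siNC (log2 fold change -0.65, SE 0.10). The motor KIF11, the pole proteins TACC3, SPAG5 and ASPM, and the spindle protein DLGAP5 fell in both comparisons, by 0.59 to 1.02 with MGA and by 0.39 to 0.73 with siMYC on the log2 scale. All of these calls, in both comparisons, were lost on TPM. With DESeq2 those of KIF11, ASPM and DLGAP5 were lost in both, and that of TACC3 with MGA. The MGA calls of TACC3 (adjusted p = 0.046) and ASPM (adjusted p = 0.048) were near the threshold in the edgeR test. Over the alternatives, the TACC3 estimate with MGA ran from -1.12 to -0.16. KIF2C fell with siMYC alone, and KIFC1 and NUSAP1 passed in neither.

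MZT1, a small subunit that helps gamma-tubulin complexes nucleate microtubules, gave the largest fall with siMYC. It had 5.05 and 6.14 CPM with siMYC, against 29.3 and 31.5 CPM with siNC (log2 fold change -2.44, SE 0.31, adjusted p = 3.3e-07). These values rest on 11 and 10 counts with siMYC, against 41 and 54 counts with siNC. It had 21.9 and 31.5 CPM with MGA, against 28.9 and 40.8 CPM with empty vector, where the groups overlapped and the change (-0.41, SE 0.28, adjusted p = 0.42) did not pass. Both siMYC libraries were thus below the other 6, whose lowest value was 21.9 CPM, and the fall with siMYC held in all 17 alternatives.

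In the central spindle and cytokinesis group, 2 of 7 genes fell with MGA and 6 of 7 with siMYC. RACGAP1, which with the motor KIF23 forms the centralspindlin complex, had 49.3 and 47.9 CPM with MGA, against 66.0 and 60.0 CPM with empty vector, a change that did not pass (-0.37, SE 0.20, adjusted p = 0.27). It had 47.3 and 45.4 CPM with siMYC, against 118 and 127 CPM with siNC, the smallest p of the 54 genes in that comparison (log2 fold change -1.40, SE 0.14, adjusted p = 5.9e-09). In length-corrected levels the fall of RACGAP1 was smaller, with 54.6 and 50.7 TPM with siMYC against 71.9 and 82.4 TPM with siNC, and its call was lost on TPM (log2 fold change -0.54). The effective length estimated for RACGAP1 was 1394 and 1402 bases with siMYC, against 2336 and 2149 bases with siNC; whether transcript forms differed was not tested.

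PRC1, which bundles the microtubules of the central spindle, had 84.9 and 73.6 CPM with MGA, against 122 and 114 CPM with empty vector, and fell (log2 fold change -0.56, SE 0.16, adjusted p = 0.026). Neither DESeq2 nor limma-trend on TPM called PRC1 with MGA. With siMYC it had 205 and 236 CPM, against 254 and 262 CPM with siNC, and did not pass (-0.23, SE 0.10, adjusted p = 0.076). KIF23 fell in both comparisons, by 0.88 with MGA and by 0.56 with siMYC on the log2 scale. ANLN (anillin), ECT2, the activator of RhoA at the division site, KIF4A and KIF20A fell with siMYC alone, by 0.42 to 0.58. On TPM all of these siMYC-alone calls were lost, and with DESeq2 those of ECT2, KIF4A and KIF20A. ECT2 had 190 and 159 CPM with MGA, against 168 and 167 CPM with empty vector, a log2 fold change of 0.07 that did not pass.

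Both genes of chromosome structure fell in both comparisons. TOP2A, the topoisomerase that untangles sister chromatids, had 245 and 278 CPM with MGA, against 481 and 511 CPM with empty vector (log2 fold change -0.93, SE 0.11, adjusted p = 1.1e-06). It had 818 and 701 CPM with siMYC, against 1124 and 1083 CPM with siNC (log2 fold change -0.54, SE 0.08, adjusted p = 1.1e-05). MKI67, the Ki-67 antigen that coats mitotic chromosomes, fell by 0.71 with MGA and by 0.48 with siMYC on the log2 scale.

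**Figure D4:**
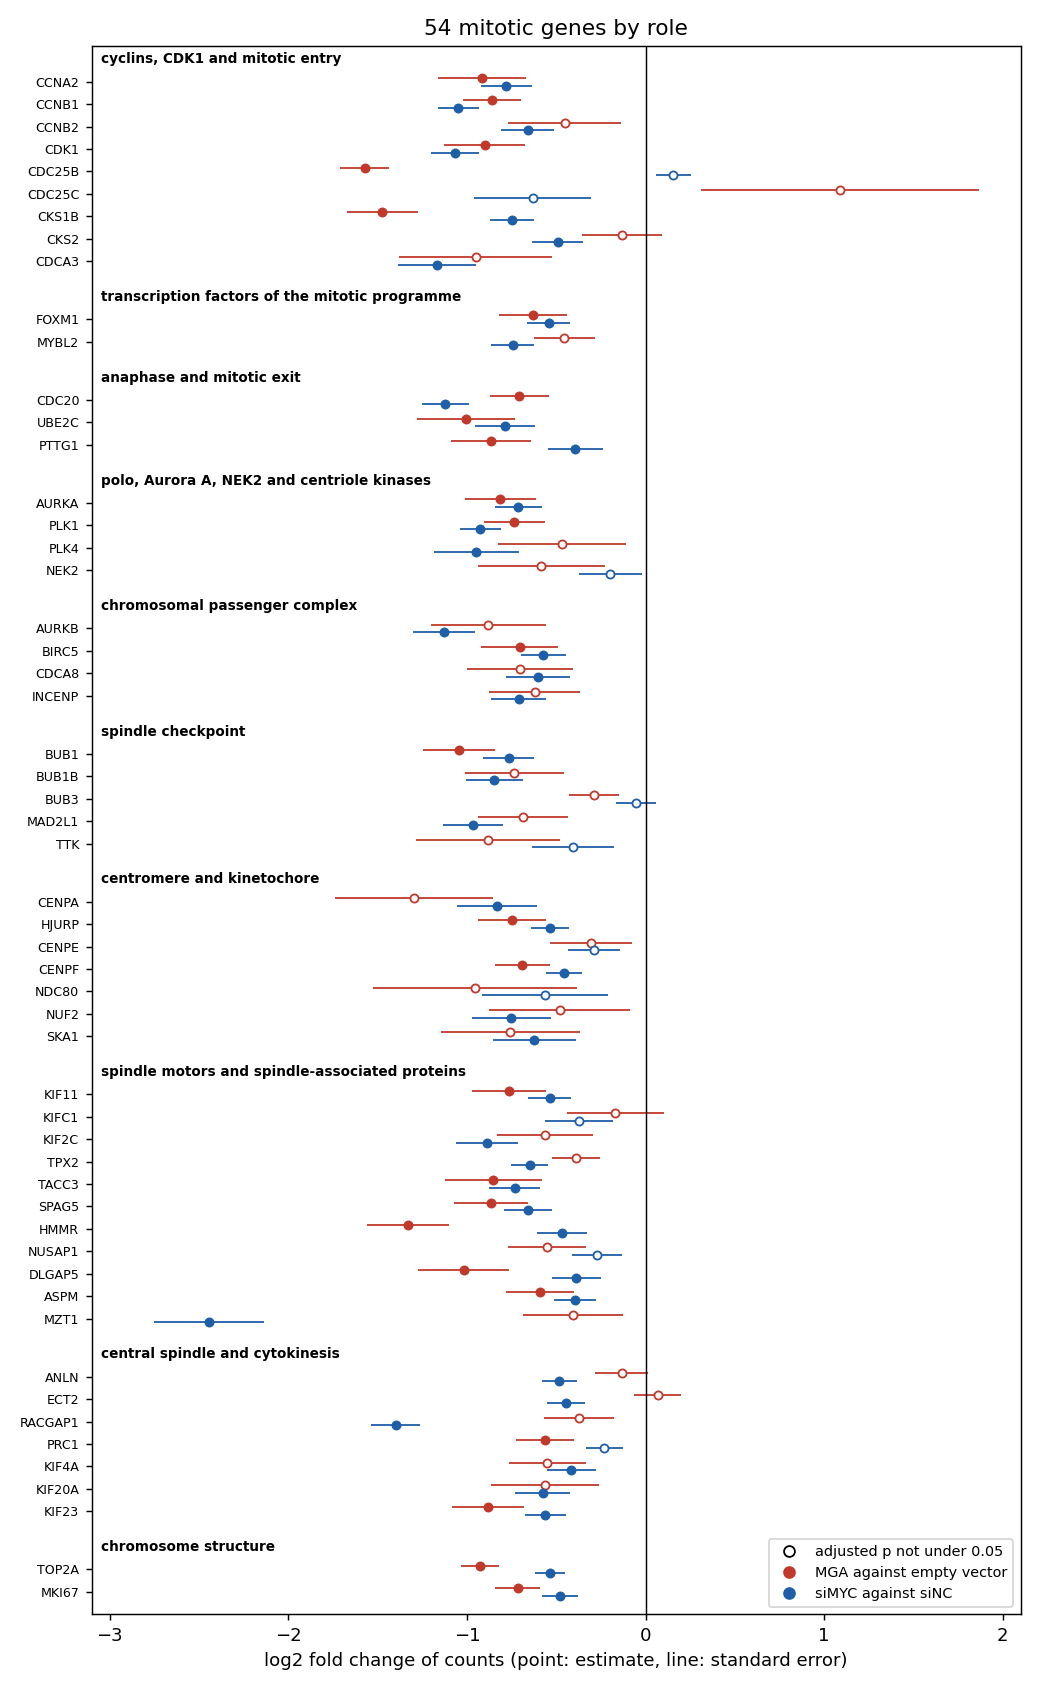
Log2 fold changes with standard errors of the 54 mitotic genes by role, for MGA against empty vector (red) and siMYC against siNC (blue); filled points have an adjusted p under 0.05. Nearly all estimates lie left of 0, with 25 filled red and 44 filled blue points; CDC25B (red) and MZT1 (blue) reach furthest left, at -1.57 and -2.44.

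Across the comparisons, 23 genes were called lower in both, where 1.91% of all tested genes were, 21 with siMYC alone, 2 with MGA alone (CDC25B and PRC1) and 8 in neither. A call in 1 comparison alone does not show that the responses differed, so the difference was tested as an interaction contrast over all 8 libraries. In it 18.5% of all tested genes were called (8.22% lower, 10.3% higher). The 54 genes were not called more often than that: 7 of 54 were, a smaller share. Of these, 4 fell more with MGA: CDC25B (difference of log2 fold changes -1.73, SE 0.17, adjusted p = 3.3e-08), HMMR (-0.86, SE 0.27, adjusted p = 0.027), CKS1B (-0.73, SE 0.24, adjusted p = 0.033) and TOP2A (-0.39, SE 0.14, adjusted p = 0.043). The other 3 fell more with siMYC: MZT1 (2.04, SE 0.43, adjusted p = 0.0012), RACGAP1 (1.03, SE 0.24, adjusted p = 0.0034) and ECT2 (0.51, SE 0.17, adjusted p = 0.033).

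The difference for CDC25B was called in all 16 alternatives that gave one, among them DESeq2 and TPM, where it was the single gene of the 54 called. The difference for MZT1 was lost with DESeq2 and on TPM, and that for RACGAP1 was lost with DESeq2 and stood at -0.06 on TPM. The calls of HMMR, CKS1B, TOP2A and ECT2 were lost in 7 to 9 of 16 alternatives. The count dropped to 3 when MGA A, empty vector A or siNC B was left out, and to 4 when empty vector B was.

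**Figure D5:**
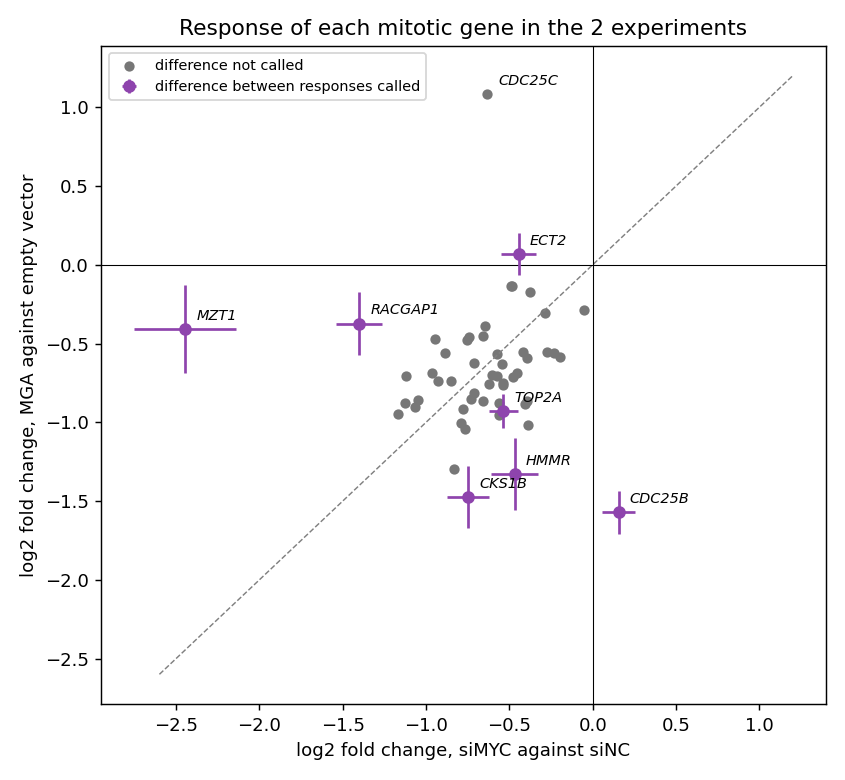
Log2 fold change with MGA (vertical) against log2 fold change with siMYC (horizontal) for each of the 54 mitotic genes. The dashed line marks equal responses. Purple points with standard errors are the 7 genes called in the interaction test, a smaller share than the 18.5% of all tested genes. CDC25B lies at -1.57 with MGA and 0.16 with siMYC, and MZT1 at -0.41 and -2.44.

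The level of the programme also differed between the experiments, which have no library in common. The 54 genes summed to 2136 and 2064 TPM with MGA (of a total that includes the MGA gene) and 3306 and 3222 TPM with empty vector, and to 3853 and 3730 TPM with siMYC and 5163 and 5127 TPM with siNC. The siMYC libraries thus held more of these transcripts than the empty vector libraries. Among the controls, CDC25B, PLK4, BUB3, KIFC1, SPAG5 and MZT1 went against the sums, with a higher mean TPM with empty vector than with siNC. Some of these were nearly level, such as BUB3 at 151.6 TPM with empty vector and 151 TPM with siNC. The same comparison over all tested genes was not made. The contrast of empty vector with siNC was not tested, since vector, siRNA and experiment cannot be told apart there.

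The genes with a window were also counted by motif. With MGA, 15 of 34 genes with TTTGAA and 6 of 12 genes without it fell, with median log2 fold changes of -0.70 and -0.86. With siMYC, 29 of 34 with it and 9 of 12 without it fell, with medians of -0.58 and -0.74. Of the 6 genes with CACGTG, 3 fell with MGA and 5 with siMYC, against 18 and 33 of the 40 genes without it. These are counts over the 46 genes with a window, given with no test. Over all tested genes, 4.0% were called lower with MGA and 20% with siMYC, and those were not split by motif.

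A list of 107 other mitotic genes, of which 106 passed the filter, was read beside the 54. In it 14 genes fell and 0 rose with MGA, with a median log2 fold change of -0.36, and 53 fell and 2 rose with siMYC, with a median of -0.49. Over all tested genes, 4.0% fell and 4.96% rose with MGA, 20% fell and 19.0% rose with siMYC, and both medians were 0.01. With MGA the count was 6 when MGA A or empty vector A was left out, and 8 when MGA B or empty vector B was. In condensin, which compacts chromosomes, 4 of 8 genes fell with MGA and 8 of 8 with siMYC. NCAPD2 had 81.2 and 70.1 CPM with MGA, against 138 and 145 CPM with empty vector (log2 fold change -0.89, SE 0.15, adjusted p = 0.00028), and NCAPG had a log2 fold change of -1.23 (SE 0.24). Both genes fell with siMYC too, by 0.39 and 1.01 on the log2 scale.

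Outside condensin, KPNA2, an importin, had 272 and 284 CPM with MGA, against 417 and 395 CPM with empty vector (log2 fold change -0.55, SE 0.10, adjusted p = 0.00059). It had 484 and 457 CPM with siMYC, against 749 and 737 CPM with siNC (log2 fold change -0.66, SE 0.08, adjusted p = 3.3e-07). ZWINT, a kinetochore protein, fell in both as well, by 1.11 with MGA and by 1.02 with siMYC on the log2 scale. The core genes of the anaphase-promoting complex and its partners fell in 1 of 15 cases with MGA, UBE2S (-0.48), and in 7 of 15 with siMYC, among them UBE2S (-0.83, SE 0.11) and ANAPC1 (-0.93, SE 0.13).

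Other spindle and centrosome genes fell in 3 of 25 cases with MGA and in 19 of 25 with siMYC. Other centromere and kinetochore genes fell in 2 of 28 cases with MGA and in 7 of 28 with siMYC, shares near those of all tested genes (4.0% and 20%). Other cytokinesis genes fell in 3 of 5 cases with each treatment. Cohesin and separation genes fell in 0 of 11 cases with MGA and in 5 of 11 with siMYC. Genes of entry and phosphatase control fell in 1 of 8 cases with MGA and in 4 of 8 with siMYC. Of the MuvB core and DREAM genes, 0 of 6 were called in either comparison. The 2 genes that rose with siMYC, named after their values were seen, were the cohesin gene STAG2 (log2 fold change 0.57, SE 0.13, adjusted p = 0.001) and CIT, the citron kinase of cytokinesis (0.79, SE 0.17, adjusted p = 0.0004).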

How the data were processed

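Poly(A)-selected RNA from 8 A549 libraries was sequenced, per the labels' protocols. The authors' tables hold expected counts, estimated by RSEM per the file headers, and TPM, which the authors scaled by gene length to a fixed total per library; per the submitters' processing notes STAR and RSEM were used with hg19. Tool versions, annotation and strand use: not given in the sources used here. Hence genes that overlap others or have close copies are uncertain. FPKM values were not used. A leukocyte marker of the list is not reported here.

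Expected counts were rounded, filtered with filterByExpr (minimum count 10, minimum total 15), scaled by TMM and fitted for 4 groups in edgeR 4.0.16 (R 4.3.3, quasi-likelihood test, 4 residual degrees of freedom), with Benjamini-Hochberg adjustment over 11218 genes, and genes were called at an adjusted p under 0.05. SE is the log2 fold change divided by the square root of F. CPM values are TMM-scaled, and all p-values are two-sided. On simulated counts with 200 genes drawn to change 2-fold, 60% of those tested were recovered for MGA and 84.2% for siMYC. Of 118 simulated calls for MGA 1 was false, and of 174 for siMYC 9 were. The simulation gave all genes 1 common spread and their mean level over all libraries. Recovery with a spread that differs by gene, as in real counts, was not tested.

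Nothing says that replicates were separate cultures, so p-values measure the spread between these samples. The members and lists were chosen with earlier results of these data known. Genes are described with values per library by a rule: the 4 smallest p of each contrast, and the most abundant gene of each role. Within every group the replicates' counts were further apart than sampling gives (chi-square per degree of freedom 1.13 to 1.85). Alternatives were RLE factors, library sizes alone, counts without the MGA gene, no filter, DESeq2 1.42.0, limma-trend 3.58.1 on log2(TPM + 1), separate fits, a replicate block and leaving out each library. Promoter sequences come from RefSeq (GRCh38.p14) and were matched by symbol; the count tables, built on hg19, hold no coordinates.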

Additional observations from a re-analysis of the deposited data

How the results depend on the processing

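With DESeq2, 13 of the 54 genes were called lower with MGA, 25 with siMYC and 1 differed between the responses; on TPM these numbers were 3, 7 and 1. In the list of other mitotic genes, DESeq2 called 5 lower with MGA and 16 with siMYC, TPM 0 and 6, and library sizes alone 22 with MGA. Leaving out each library in turn gave 9 to 25 calls with MGA, 39 to 44 with siMYC and 3 to 7 for the difference, and in the other list 6 to 16 with MGA and 39 to 52 with siMYC. The cause was not tested.

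Labels A and B name the replicates, but nothing says that a letter marks a shared batch, and deviations of the A libraries from their group means correlated at -0.02 between MGA and empty vector and at 0.13 between siMYC and siNC. With a replicate block, 25 of the 54 genes were called lower with MGA, 44 with siMYC and 7 for the difference, and with a replicate block within each experiment 26, 45 and 7.

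Apart from the difference for RACGAP1, the values that changed sign belonged to contrasts in which the gene was not called. With MGA they were CKS2 (-0.354 to 0.125), KIFC1 (-0.857 to 0.215) and ECT2 (-0.0731 to 0.182) over the fits that leave out a library, ECT2 on library sizes alone (-0.0595), and on TPM BUB1B (0.0593), CENPE (0.85), KIFC1 (0.0032) and ANLN (0.0578). With siMYC they were BUB3, at 0.0144 without the MGA gene in the counts, 0.0555 on TPM and -0.161 to 0.0333 when a library was left out, and CENPE on TPM (0.0788). For the difference they were PLK1 (-0.077) and RACGAP1 (-0.0595) on TPM, and AURKB (-0.0316 to 0.525) when a library was left out. In the MGA comparison, 15 of the 54 genes averaged under 29.8 counts, the lowest mean of a called gene.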
